A study of Drosophila melanogaster with 53 samples.

Results

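The cytochrome P450 genes of Drosophila melanogaster were followed through muscle RNA of ageing males and of 3 d females with mutations in miR-252, foxo, Atg8a or the daw 3' UTR. The genes were taken by name: every symbol that began with Cyp and a digit in the female tables, and the same gene in the male table. The rule took 77 genes. One of them, Cyp1, is a cyclophilin (a peptidyl-prolyl isomerase) that shares only the prefix, so 76 P450 genes were described: 36 of the CYP3 clan, 28 of the CYP4 clan, 8 of the mitochondrial clan and 4 of the CYP2 clan. The male table listed 72 of the 76 among 10657 genes. Each female table listed 73, of 10222 genes for the flies with Atg8a or daw 3' UTR mutations (the Atg8a/daw set) and of 10258 for those with miR-252 or foxo mutations (the miR-252/foxo set).

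All values below come from sequencing of polyadenylated RNA, with 3 libraries in each group. WT was line 5905, a w1118 stock, kept at 25 °C and 60% humidity. Male muscle was taken from WT at 3, 15, 30 and 45 d after eclosion. Female muscle was taken at 3 d from WT and from flies homozygous for 1 allele per gene: atg8a c320, daw-3'UTR c82, daw-3'UTR c82 with foxo c431, mir-252 c328, foxo c431, and mir-252 c328 with foxo c431 on 1 chromosome. A further female group carried that double mutation with daw c458 over a WT chromosome, and another pair of female groups, WT and foxo c431, was raised axenically, that is without microbes on antibiotic medium. Atg8a encodes an autophagy protein, daw an activin-like ligand and foxo the transcription factor held back by insulin signalling. Loss of a gene below means the genotype that the labels write as -/-. The lesion of each allele, and whether the lines were brought into 1 background, are not given in the sources used here. The labels do not say that a group's libraries were from separate animals, and p-values measure the spread between libraries, which may be technical.

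Cytochrome P450s are heme monooxygenases. They draw electrons from cytochrome P450 reductase in the endoplasmic reticulum or from ferredoxin in mitochondria, and add oxygen to steroids, fatty acids, cuticular hydrocarbons, plant toxins and insecticides. In flies the genes of the CYP3 and CYP4 clans include most of those tied to detoxification, many of them in tandem arrays, while those that make or inactivate ecdysteroids lie in the CYP2, CYP3 and mitochondrial clans. Detoxifying P450s are known chiefly from gut, Malpighian tubule and fat body, and Cyp4g1 from oenocytes, the hydrocarbon-making cells of the body wall.

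Depth was 2358162 to 4078819 reads per library. Muscle markers were abundant in every library, with a summed level over 16 or 17 genes of 41483 to 248393 normalised reads, and markers of fat body, oenocyte, gut and hemocyte were present in every group too. In such bulk samples fewer cells of a type and less RNA per cell cannot be told apart. One male library stood apart: 3 d replicate 3 had a log2 correlation of 0.848 and 0.845 with the other 3 d libraries, which correlated at 0.979 with each other, and 34.4% of its reads were mitochondrial, against 26.4% and 24.9%. The mitochondrial share was lower in all older males, at 12.9% to 13.4% at 15 d, 8.67% to 8.81% at 30 d and 5.51% to 7.91% at 45 d, and its part in the age changes was not tested. Counts and median changes of each age against 3 d are given with and without 3 d replicate 3. Values of single genes include that library unless stated otherwise. The fit of 45 d against 15 d also drew on it for the spread and was not repeated without it. Among the mutated genes, Atg8a fell to 43.0 to 60.4 normalised reads in the Atg8a mutant from 2421 to 3569 in WT. The foxo transcript did not fall in foxo mutants (715 to 828 normalised reads against 534 to 617 in WT of the miR-252/foxo set), so its level does not check that label.

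Levels of the P450s were very uneven. Per kilobase of exon, Cyp4g1, the oxidative decarbonylase that makes cuticular hydrocarbons, stood first in WT at every age and in both female sets, with a mean of 10150.2 normalised reads per kilobase in 3 d males, 3062 in WT females of the Atg8a/daw set and 7879.5 in WT females of the miR-252/foxo set. The sets were normalised separately, so these levels were not tested against each other. Cyp4g1 alone took 40.1% to 75.7% of all P450 reads in a library. The next levels per kilobase in WT females of the miR-252/foxo set were 752 for Cyp6d5 and 536 for Cyp9f2. At the low end, 16 of the 76 genes reached a mean of 10 normalised reads in none of the tables that list them and were tested nowhere. They were Cyp28c1, Cyp28d2, Cyp304a1, Cyp312a1, Cyp313a3, Cyp313a4, Cyp313b1, Cyp316a1, Cyp318a1, Cyp49a1, Cyp4ad1, Cyp4c3, Cyp6a15Psi, Cyp6a19, Cyp9c1 and Cyp6t3, the last known for ecdysone synthesis in larvae. The tests below cover 57 P450s in males, 56 in the Atg8a/daw set and 52 in the miR-252/foxo set.

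By position, 34 of the 76 lay on chromosome arm 2R, 14 on 3R, 11 each on X and 2L, and 6 on 3L (Ensembl annotation of BDGP6, which is dm6). With neighbours at most 20 kb apart, 38 genes fell into 13 clusters. The largest held 9 genes within 31.7 kb at chr2R:14871366-14903095: Cyp6a22, Cyp6a17, Cyp6a23, Cyp6a19, Cyp6a9, Cyp6a20, Cyp6a21, Cyp6a8 and Cyp317a1. Reads that close copies share may be split between them. For 21 P450s an exon overlapped another gene or a transposon, and the sources used here do not give whether counting used strand, so such reads cannot be told apart. This touches Cyp4s3 (over Rab3-GEF), Cyp9b1 (over esn), Cyp4e1 (over Mal-A1), Cyp6d2 (over nsr), Cyp4aa1 (over Strn-Mlck), Cyp12b2 (over Jabba), Cyp317a1 (over Kank), Cyp301a1 (over Ak6), Cyp303a1 (over heix) and Cyp6u1 (over Ufsp1). It also touches Cyp6a14, Cyp6a22 and Cyp12a4 (each over a transposon), and the neighbours Cyp6g1 and Cyp6g2, and Cyp6a9 and Cyp6a19, which overlap each other.

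Every comparison was a limma fit on log2 of the normalised read count plus 1 across all genes of a table with a mean of at least 10, and genes under an adjusted p of 0.05 were called. The plot of called shares sets the P450s beside all genes tested. All older male groups share the 3 d libraries, and within a female set every mutant is set against 1 WT group.

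**Figure D1:**
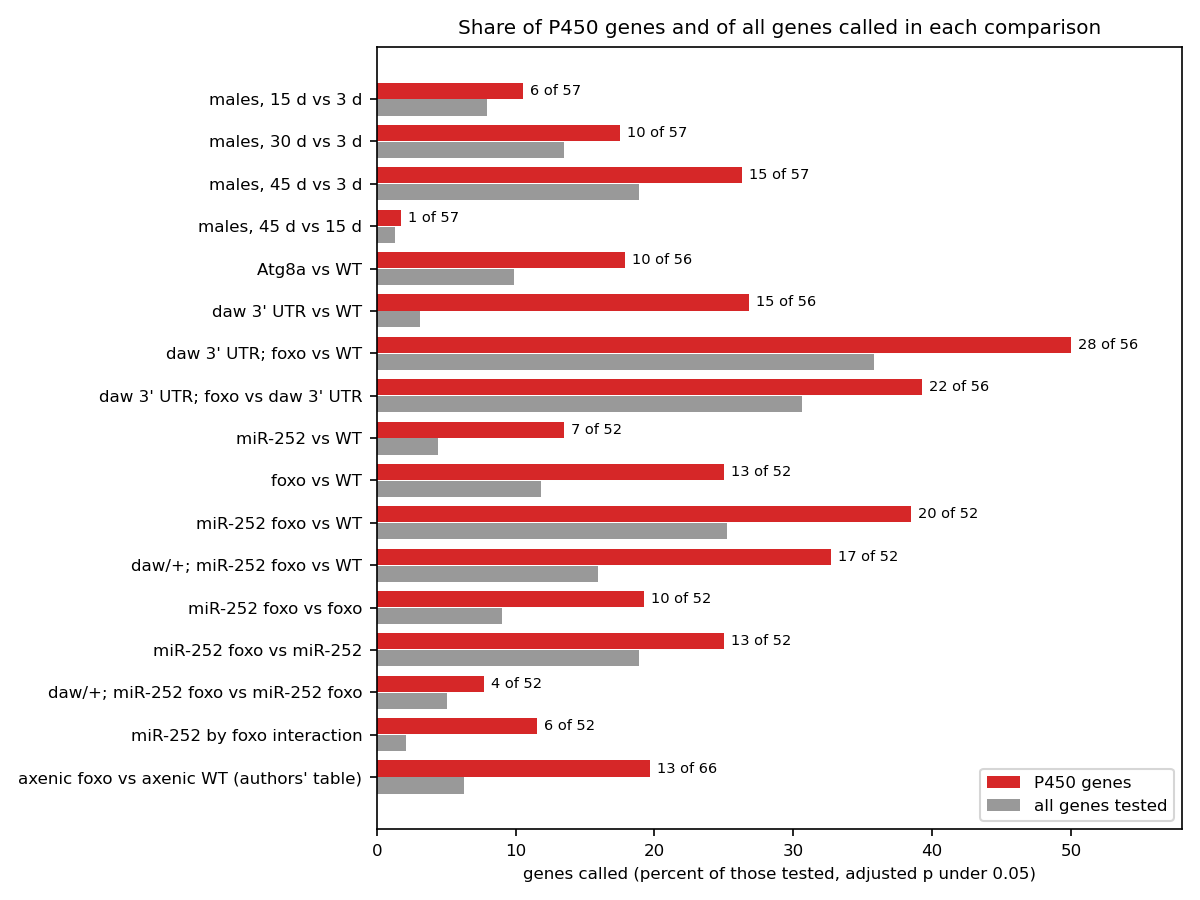
Share of genes called in each comparison, in percent of those tested, for P450 genes (red, with the number called of those tested) and for all genes tested (grey). The share of P450s was above that of all genes in each of the 17 comparisons, from 1.75% against 1.29% at 45 d against 15 d to 26.8% against 3.12% in the daw 3' UTR mutant.

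With age, P450s of males were called in both directions. At 15 d, 6 of 57 P450s were called (5 higher, 1 lower), against 7.97% of all genes (2.35% higher, 5.62% lower). At 30 d the count was 10 (7 higher, 3 lower) against 13.5% (5.4% higher, 8.09% lower), and at 45 d it was 15 (9 higher, 6 lower) against 18.9% (8.41% higher, 10.5% lower). The excess of higher calls at 45 d was not stable: the count was 6 higher and 6 lower without a filter or without 45 d replicate 1 or 2, 7 and 7 without 3 d replicate 1, and 6 and 7 without 3 d replicate 2. On a common upper quartile scale the split was 5 higher and 2 lower at 15 d and 6 higher and 7 lower at 45 d, and with DESeq2 it was 8 higher and 6 lower at 30 d. Median log2 changes of the P450s were 0.13, 0.16 and 0.10 at the 3 ages, beside 0.06, 0.07 and 0.07 for all genes. The P450 medians moved with the 3 d libraries, to 0.36, 0.33 and 0.36 without replicate 3 and to 0.01, 0.05 and -0.04 without replicate 1. Without 3 d replicate 3 the counts were 30 (26 higher, 4 lower), 31 (25 higher, 6 lower) and 35 (25 higher, 10 lower), against 30.8%, 42.1% and 48.7% of all genes (1196 higher and 1393 lower, 1723 and 1807, 1987 and 2103). They held every one of the 6, 10 and 15 genes called with it. Without 15 d replicate 2 the 15 d count was 3.

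Cyp4d1, a CYP4 gene on the X (chrX:2159145-2162180), rose most steadily. Its normalised read counts were 7.21, 7.06 and 9.90 at 3 d, 24.2, 39.9 and 24.7 at 15 d, 48.1, 61.3 and 36.2 at 30 d and 52.0, 49.6 and 47.1 at 45 d. Every older library lay above every 3 d library. The log2 change was 1.73 ± 0.25, adjusted p = 0.00106, at 15 d and 2.50 ± 0.25, adjusted p = 3.18e-05, at 45 d (± SE throughout). Cyp6a18 behaved alike at a lower level, from 4.98 ± 0.767 normalised reads (SD, n = 3) at 3 d up to 19.0 ± 3.21 by 15 d and 24.7 ± 4.05 by 45 d, with no overlap (2.10 ± 0.32, adjusted p = 0.000692). Cyp4ac3 rose from 11.5, 12.7 and 19.8 at 3 d to 30.9, 43.4 and 45.3 at 45 d, again without overlap (1.40 ± 0.27, adjusted p = 0.0036). Its tandem neighbours Cyp4ac1 and Cyp4ac2 were not called at any age in the main fit. Without 3 d replicate 3, Cyp4ac2 was called higher at 15, 30 and 45 d, by log2 0.67, 0.96 and 0.75. In that setting Cyp4ac1 was called higher at 15 and 30 d, by log2 0.41 and 0.55.

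Other genes that rose were Cyp6d2, from 2.99 ± 1.42 to 15.1 ± 0.672 (log2 2.08 at 45 d), and Cyp6a16, from 2.53 ± 0.992 to 15.9 ± 3.19 (log2 2.28). Cyp4p2 went from 216, 237 and 339.8 at 3 d to 442, 523 and 539.6 at 30 d, a log2 change of 0.94 ± 0.18, adjusted p = 0.00425, without overlap. At 45 d, calls close to the threshold were Cyp6g1, the gene behind DDT resistance in many fly populations (566 ± 185 to 868 ± 96.0, adjusted p = 0.049, groups overlapping through 3 d replicate 3), Cyp4d21, also called sxe1 and known from the male head (adjusted p = 0.0476), and Cyp6a13 (adjusted p = 0.0497). Those 3 calls were each lost under at least 8 of the other settings or left-out libraries. Cyp4aa1 was called higher at 15 d and 30 d only.

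Among the genes that fell was Cyp18a1, the enzyme that inactivates 20-hydroxyecdysone. It gave 112, 131 and 85.8 at 3 d, 54.0, 38.02 and 46.1 at 15 d, 68.1, 56.2 and 48.5 at 30 d and 46.8, 51.4 and 47.1 at 45 d. The drop was in place by 15 d (-1.23 ± 0.20, adjusted p = 0.00222), and every older library lay under every 3 d library. Cyp305a1, of the CYP2 clan, had means of 418 ± 28.7, 291 ± 36.3, 232 ± 20.7 and 181 ± 19.9 at the 4 ages. It was called at 30 d and at 45 d (-1.21 ± 0.15, adjusted p = 0.000176). Cyp6a20, known for its effect on male aggression, went from 474, 529 and 473 at 3 d to 281, 315 and 337 at 45 d (-0.66 ± 0.13, adjusted p = 0.0038), without overlap. Cyp4e1, Cyp12a5 and Cyp313a1 were also lower at 45 d, by log2 -0.88, -0.78 and -0.67.

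Cyp4g1 peaked at 15 d, with 27190.1, 21394 and 20813 normalised reads at 3 d, 29708, 32392 and 30920.5 at 15 d, 20019.8, 20313 and 25786 at 30 d and 15704, 19531 and 15382 at 45 d. All 15 d libraries lay above all others. Against 3 d, Cyp4g1 was called at none of the older ages in the main fit. Without 3 d replicate 3 it was still not called at 15 d (log2 0.36, limma adjusted p = 0.0584). In that setting it was called lower at 45 d than at 3 d (log2 -0.52, limma adjusted p = 0.00509). In the main fit, which pools the spread over all male libraries, Cyp4g1 was the only P450 called between 45 d and 15 d. That was 1 of 57 against 1.29% of all genes (0.62% higher, 0.667% lower). With only the 15 d and 45 d groups fitted, 11 P450s were called. The 1.29% does not belong to that fit, and its share of all genes is not given here, so the 11 cannot be set against other genes. Cyp4g1 was called in the main fit at a log2 change of -0.89 ± 0.16, adjusted p = 0.0254. That call was lost without a filter on low values (adjusted p = 0.0667), with a replicate block (adjusted p = 0.0721) and without 15 d replicate 1, 2 or 3, or 45 d replicate 1 or 3, and its adjusted p reached 0.145 over the alternatives. Oenocyte markers had the same order of summed levels, 1752 to 2461 at 3 d, 2512 to 2692 at 15 d, 1594 to 2099 at 30 d and 1249 to 1486 at 45 d, and 1 of their 4 tested genes was called lower from 15 d to 45 d. Fat body markers rose (4 of 5 tested at 30 d and at 45 d) and muscle markers fell (13 of 16 at 45 d) over the same ages. Their part in the P450 changes was not tested.

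**Figure D2:**
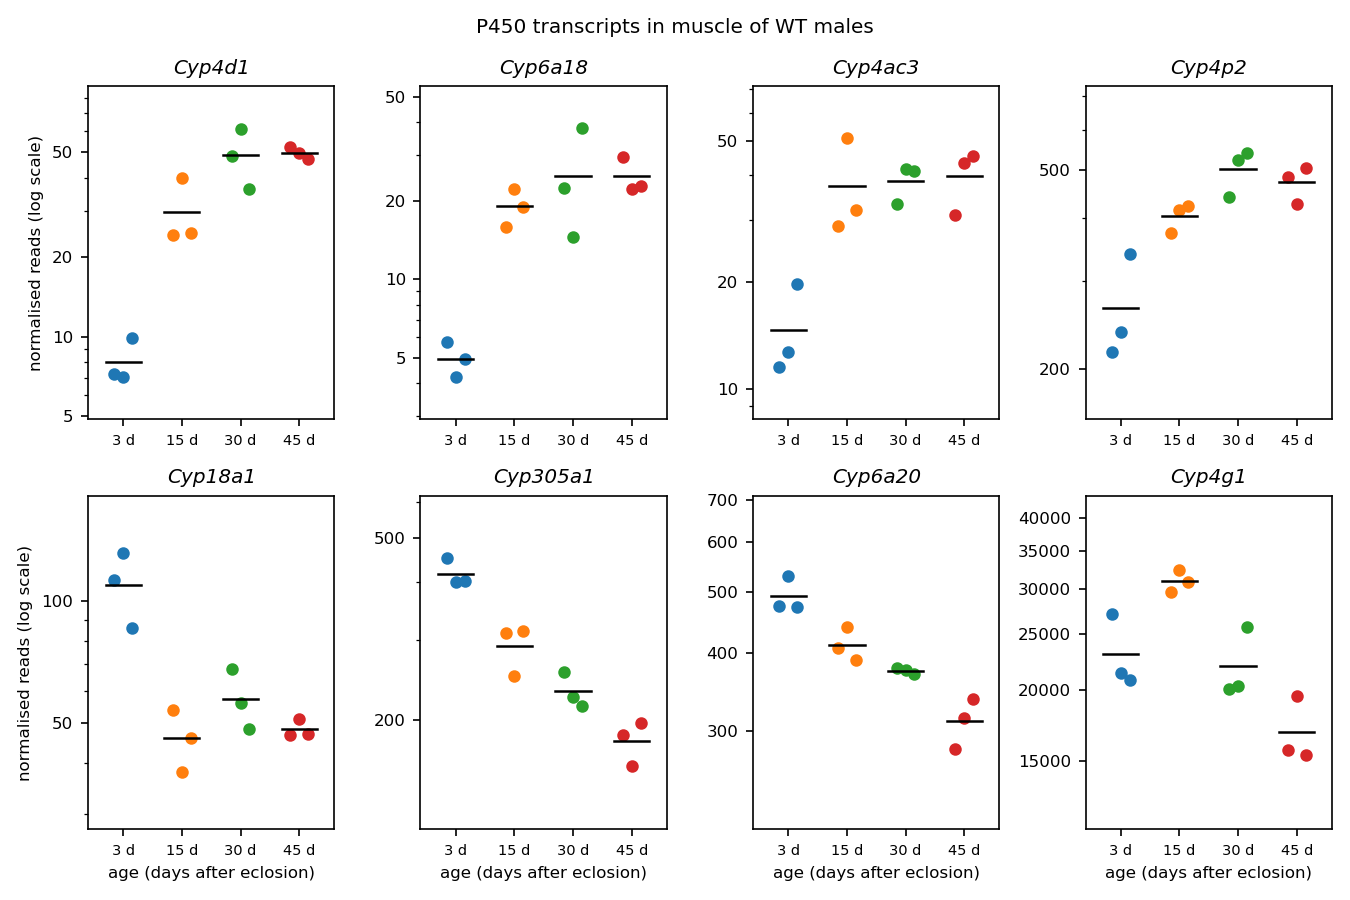
Normalised reads (log axis) of 8 P450 genes in muscle of WT males by age in days. Points are libraries (3 per age) and lines are means. The top row rose from 3 d (Cyp4d1 from 8.06 to 49.6 at 45 d), the first 3 genes of the bottom row fell, and Cyp4g1 was highest at 15 d.

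The daw 3' UTR mutant showed the widest gap between P450s and other genes. Of 56 P450s tested, 15 were called (6 higher, 9 lower), 26.8% of them against 3.12% of all genes (1.16% higher, 1.96% lower), and the median P450 log2 change was 0.12 beside 0.01 (0.02 without WT replicate 3). The count was 9 (5 higher, 4 lower) without WT replicate 1, the library whose removal lowered it most. On 2R 12 of the 28 tested P450s were called (3 higher, 9 lower), and on the other arms 3 of 28. All tested genes were also called more often on the chromosome that carries daw: 5.63% on 2R and 4.88% on 2L, against 1.79% on 3L, 1.73% on 3R and 2.0% on X. The part of linked background differences in the P450 calls was not tested.

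Cyp6a17, known for its role in temperature preference and in survival of pyrethroids, gave 47.7, 49.7 and 40.0 normalised reads in WT and 251, 234 and 183 in the daw 3' UTR mutant (2.25 ± 0.17, adjusted p = 1.99e-06). The lowest mutant library was above the highest WT library. Its neighbour Cyp6a23 moved the other way, from 135, 121 and 117 to 62.3, 49.4 and 50.0 (-1.20 ± 0.17, adjusted p = 0.000782), again with no overlap. Of the 9 genes of that cluster 8 were tested: Cyp6a17 and Cyp6a22 rose, and Cyp6a23, Cyp6a9, Cyp6a20, Cyp6a8 and Cyp317a1 fell, by log2 -1.20, -0.89, -1.12, -1.92 and -1.18. Only Cyp6a21 was not called among the tested genes of that cluster, with 23.3, 27.9 and 36.2 in WT and 35.4, 31.0 and 32.8 in the mutant.

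Cyp4p2 fell from 151, 143 and 147 in WT to 22.0, 12.6 and 24.6 in the mutant (-2.89 ± 0.27, adjusted p = 2.33e-05), with no overlap. Its tandem copies Cyp4p1 and Cyp4p3 were not called. Cyp9b2 fell from 328, 260.4 and 319.9 to 80.6, 76.6 and 90.1 (-1.86 ± 0.17, adjusted p = 1.93e-05), while the adjoining Cyp9b1 stood at 53.3, 50.9 and 31.2 and 54.9, 67.8 and 49.1 and was not called. Cyp6a14 went from 23.3 ± 5.60 to 4.88 ± 1.87 (log2 -2.08), and Cyp12b2 from 314 ± 16.0 to 240.2 ± 10.2 (log2 -0.38).

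On 2L, the arm of daw itself, Cyp4e3 (chr2L:9747839-9750071), a gene tied to pyrethroid tolerance in Malpighian tubules, had 9.99, 31.5 and 6.25 normalised reads in WT and 276, 221 and 792 in the mutant. All mutant libraries were far above WT, and replicate 3 was the highest. In the double mutant with foxo it was back at 12.2, 5.84 and 10.5, inside or near the WT range (-5.17 ± 0.53, adjusted p = 1.1e-05, against the daw 3' UTR mutant). Further genes that rose in the daw 3' UTR mutant were Cyp4ac2 (41.4 ± 5.56 to 99.7 ± 14.2, log2 1.25), Cyp4s3 (8.81 ± 2.87 to 34.1 ± 5.46, log2 1.87) and Cyp6a2, a gene inducible by DDT and phenobarbital (234 ± 16.6 to 415 ± 35.6, log2 0.82). Some of these calls were lost when 1 library was left out. Those of Cyp12b2 and Cyp6a22 were lost without any 1 library of either group, that of Cyp317a1 without any 1 of 5, that of Cyp6a8 with edgeR or without replicate 1 or 2 of either group, that of Cyp6a14 without WT replicate 1 or mutant replicate 3, and that of Cyp6a9 without WT replicate 1 or 2. Gut markers were lower in 2 of 8 genes, with sums of 18708 to 21469 against 22642 to 35543 in WT, and their part was not tested.

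Adding the foxo mutation to the daw 3' UTR mutation changed 22 of 56 P450s (13 higher, 9 lower) against 30.6% of all genes (14.4% higher, 16.2% lower). The share of P450s was 39.3%, and without double mutant replicate 2 the count was 13. Cyp9b2 regained part of its level, from 80.6, 76.6 and 90.1 to 226, 218 and 169 (1.29 ± 0.17, adjusted p = 9.24e-05), and Cyp9b1 went beyond its WT level to 151, 178 and 90.4 (1.23 ± 0.25, adjusted p = 0.00209). Cyp4p2 stood at 39.9, 29.2 and 21.1, and Cyp6a17 at 292, 289 and 222; neither passed the test between those mutants. Cyp4ac2 came down from 99.7 ± 14.2 to 52.9 ± 7.45 (log2 -0.90).

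Of 7 hydrocarbon synthesis genes tested, 5 were lower in that double mutant than in the daw 3' UTR mutant, with 16.2% of all genes. Against WT 2 of the 7 were lower, with 19.1% of all genes. Cyp4g1 gave 8854, 8999.6 and 10382 in the daw 3' UTR mutant and 4630.5, 5909 and 5088 in the double mutant (-0.86 ± 0.12, adjusted p = 0.000106), with no overlap. Against WT the double mutant was lower in Cyp4g1 by log2 -0.42 (limma adjusted p = 0.0107). That call was lost without WT replicate 2 or double mutant replicate 1. Cyp4g15, its paralog known from the brain, went from 181, 168 and 132 to 83.2, 98.3 and 93.9 (-0.79 ± 0.14, adjusted p = 0.000651). Of 6 oenocyte markers 4 were lower in the same comparison, with summed levels of 2596 to 2976 in the daw 3' UTR mutant and 1553 to 2086 in the double mutant, and whether this bears on Cyp4g1 was not tested. All 6 markers are also in the list of hydrocarbon synthesis genes. Against WT, the double mutant had 28 of 56 P450s called (14 higher, 14 lower), 50.0% against 35.8% of all genes (16.7% higher, 19.1% lower). The largest changes there in either direction included Cyp6d2 (3.70 ± 3.28 to 30.8 ± 12.2, log2 3.10) and Cyp6a14 (23.3 ± 5.60 to 2.005 ± 1.04, log2 -3.05). Markers of several cell types moved with it. Hemocyte markers were higher in 6 of 6 genes (sums of 6616 to 8228 against 2357 to 2689 in WT), muscle markers in 12 of 17 with 3 lower (169424 to 223434 against 128710 to 157416) and cuticle and trachea markers in 5 of 7 (1114 to 1622 against 533 to 738). Gut markers were lower in 4 of 8 (14552 to 20218 against 22642 to 35543). Their part in the P450 changes was not tested.

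Loss of Atg8a changed 10 of 56 P450s (5 higher, 5 lower), 17.9% against 9.89% of all genes (5.16% higher, 4.73% lower). The fallers held better than the risers: without WT replicate 1 the count was 6 (1 higher, 5 lower), and it was 5 without Atg8a replicate 1 (1 higher, 4 lower) or replicate 2 (0 higher, 5 lower). With DESeq2 it was 7 (2 higher, 5 lower). Cyp6a17 dropped from 47.7, 49.7 and 40.0 to 8.25, 7.29 and 6.13 (-2.51 ± 0.17, adjusted p = 6.79e-07), the reverse of its change in the daw 3' UTR mutant. Its neighbour Cyp6a23 was not called, at 155, 165 and 125. Cyp4p2 fell to 25.6, 40.8 and 43.8 (-2.01 ± 0.27, adjusted p = 0.000417), all under the lowest WT library. Cyp28a5 stood at 259, 286 and 195 in WT and 97.4, 87.4 and 105 in the mutant (-1.33 ± 0.17, adjusted p = 0.000261), without overlap. Cyp305a1 and Cyp6a2 were also lower, by log2 -1.04 and -0.57. Hemocyte markers were lower in 3 of 6 genes, with sums of 1502 to 1928 against 2357 to 2689 in WT, and their part was not tested. Higher were Cyp4g1 (6978 ± 858 to 9621 ± 819.6, log2 0.47), Cyp6d4, Cyp4e3, Cyp9h1 and Cyp4aa1, each losing its call without at least 1 library of the Atg8a mutant.

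**Figure D3:**
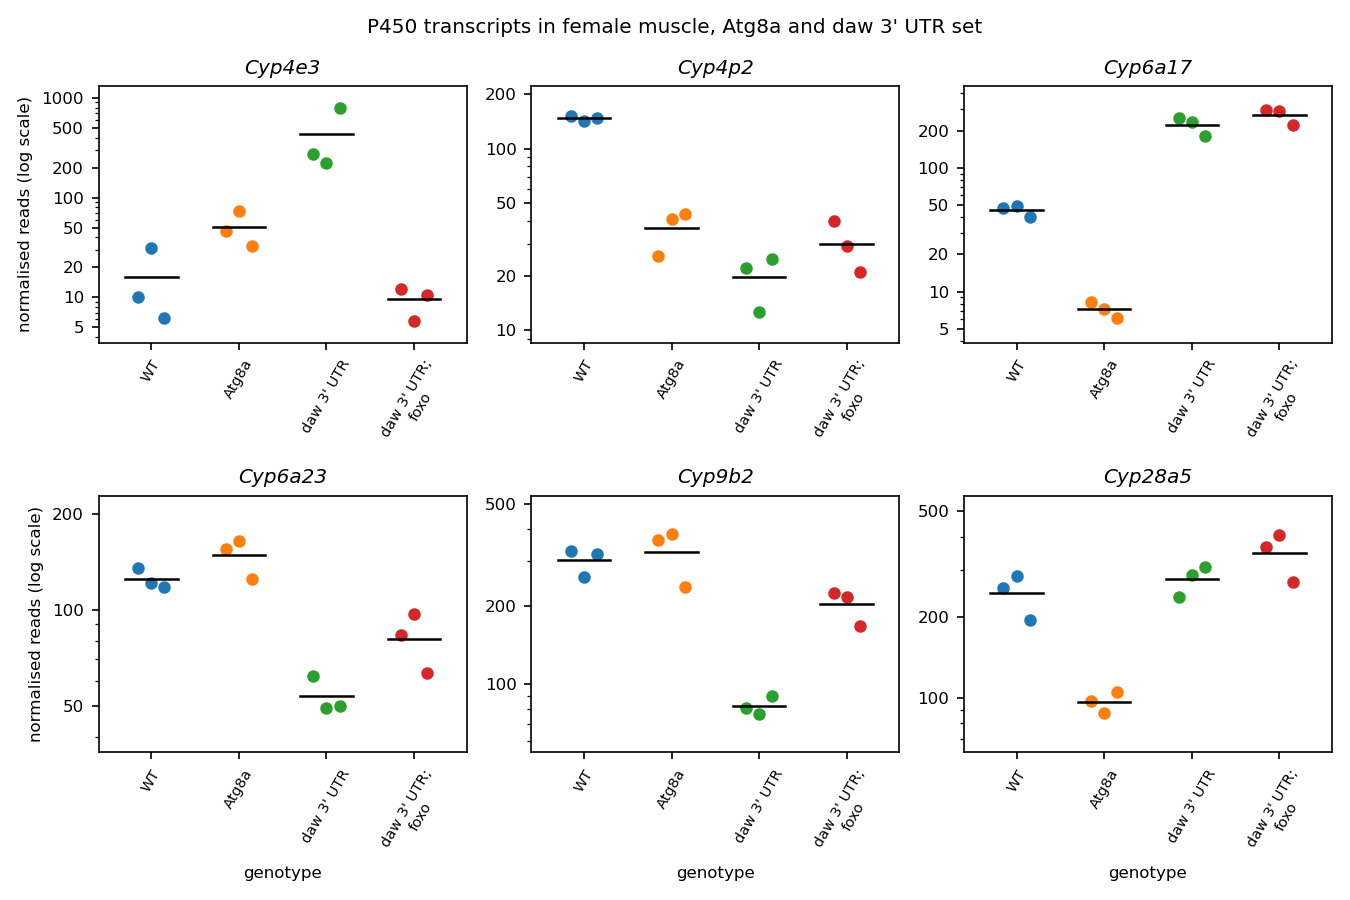
Normalised reads (log axis) of 6 P450 genes in female muscle of the Atg8a/daw set by genotype. Points are libraries (3 per group) and lines are means. Cyp4e3 was highest in the daw 3' UTR mutant (221 to 792) and at 32.4 to 73.6 in the Atg8a mutant, Cyp6a17 was lowest in the Atg8a mutant and high with the daw 3' UTR mutation, and Cyp4p2 was low in all 3 mutants.

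Loss of miR-252 alone changed 7 of 52 P450s (3 higher, 4 lower), 13.5% against 4.39% of all genes (1.88% higher, 2.51% lower). The count fell to 4 when any single WT library was left out and to 2 to 4 without 1 mutant library (2 without miR-252 replicate 1). Gut markers moved as well, 5 of 9 lower and 1 higher, with sums of 27878 to 31798 against 41219 to 47010 in WT, and their part in the P450 changes was not tested. Cyp4s3, a CYP4 gene on the X, kept its call throughout, with 5.28, 3.99 and 6.23 normalised reads in WT and 25.0, 17.5 and 18.4 in the mutant (1.79 ± 0.29, adjusted p = 0.000659). The groups did not overlap. Cyp9b1 fell from 46.5, 57.9 and 44.7 to 24.0, 29.5 and 21.4 (-0.97 ± 0.17, adjusted p = 0.00167). Cyp309a2 fell from 28.5, 32.9 and 27.0 to 2.08, 9.21 and 7.76 (-2.22 ± 0.59, adjusted p = 0.0329), a call lost when any WT library was left out.

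Loss of foxo alone changed 13 of 52 (4 higher, 9 lower), 25.0% against 11.8% (5.54% higher, 6.28% lower). Hemocyte markers were higher in 4 of 6 genes, with sums of 3897 to 5290 against 2982 to 3471 in WT, and their part was not tested. Cyp4p2 almost disappeared, from 49.7, 42.9 and 57.2 in WT to 1.11, 1.93 and 6.28 in the foxo mutant (-3.83 ± 0.32, adjusted p = 2.08e-07). Its highest mutant library was far under its lowest WT library. Cyp4s3 rose to 39.8, 45.5 and 44.0 (2.85 ± 0.29, adjusted p = 1.44e-06), above every WT library. Cyp6g1 fell from 589.8, 461 and 486 to 263, 135 and 239.8 (-1.31 ± 0.21, adjusted p = 0.000379), and Cyp6a17 from 118, 124 and 155 to 49.8, 44.5 and 67.0 (-1.29 ± 0.21, adjusted p = 0.000372), neither with overlap. In the mitochondrial clan, Cyp12e1 went from 83.8 ± 14.5 to 37.0 ± 6.62 (log2 -1.16). Cyp6d5, second in level after Cyp4g1, went from 1234 ± 181 to 691 ± 53.8 (log2 -0.83). In the Cyp4ac trio the outer genes parted, with Cyp4ac1 higher (log2 0.74) and Cyp4ac3 lower (log2 -1.60).

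With both mutations on the chromosome, 20 of 52 P450s were called against WT (11 higher, 9 lower), 38.5% against 25.2% (12.4% higher, 12.9% lower). The count was 13 without double mutant replicate 3. Cyp6g1 was lower still, at 154, 136 and 117 (-1.91 ± 0.21, adjusted p = 2.4e-06), and its neighbour Cyp6g2, which shares exon bases with it on the other strand, was lower too (log2 -1.01). Cyp4g1 fell from 18648, 18476 and 16748 to 9199, 10883 and 11588 (-0.77 ± 0.14, adjusted p = 0.000366), with no overlap. Beside it, all 6 oenocyte markers were lower, with summed levels of 2201 to 2711 against 4106 to 4861 in WT. Among them were desatF (log2 -1.09) and FASN3 (log2 -1.19). The same 6 genes are in the list of 8 hydrocarbon synthesis genes and were the only 6 called lower there. The 2 lists are thus 1 observation. Hemocyte markers were higher in 6 of 6 (5703 to 6976 against 2982 to 3471) and gut markers lower in 6 of 9 with 1 higher (24811 to 31712 against 41219 to 47010). The part of these shifts in the P450 changes was not tested. The genes of the Cyp4p cluster were all higher than in WT, by log2 1.48 for Cyp4p2, 0.61 for Cyp4p1 and 1.04 for Cyp4p3. Only the call of Cyp4p2 held in every setting. Those of Cyp4p1 and Cyp4p3 were each lost without double mutant replicate 1 or 3 and without some single WT library. That of Cyp4p3 was also lost with the authors' deposited adjusted p.

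The foxo effect differed with the miR-252 genotype for 6 of 52 P450s (5 higher, 1 lower), 11.5% against 2.09% of all genes (1.18% higher, 0.909% lower), by the interaction term of the fit (the foxo effect in the miR-252 mutant minus that in WT). Cyp4p2 had the lowest adjusted p: foxo loss lowered it in the presence of miR-252, as above, but in the miR-252 mutant it went from 73.0, 56.2 and 47.6 to 128, 129.6 and 167 (1.26 ± 0.32, adjusted p = 0.00887). The interaction was 5.09 ± 0.45, adjusted p = 1.31e-06. Cyp6a17 also changed sign, falling with foxo loss in WT but rising from 57.3, 55.3 and 108 to 179, 170.1 and 146 in the miR-252 mutant (interaction 2.52 ± 0.30, adjusted p = 3.75e-05).

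Cyp9b1 rose from 24.0, 29.5 and 21.4 to 105, 106 and 130.1 when foxo was lost as well as miR-252, and stood at 74.1, 55.1 and 57.6 with foxo loss alone (interaction 1.83 ± 0.24, adjusted p = 0.000157). Cyp6w1, a gene induced by insecticide exposure, stood at 351, 240.5 and 151 in WT, 165, 129.9 and 163 with miR-252 loss, 196, 149 and 214 with foxo loss and 451, 402 and 464 with both (interaction 1.87 ± 0.30, adjusted p = 0.000995). Of these 4 groups only the double mutant had all its libraries above all of WT. Cyp4s3 was high with either loss and, at 47.8, 44.1 and 22.5, was not called further raised by both (interaction -2.03 ± 0.41, adjusted p = 0.00928). Cyp309a2 was low with either loss and at 13.4, 14.7 and 8.83 with both (interaction 3.23 ± 0.83, adjusted p = 0.0483); that call was lost when any single WT library was left out.

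Set against the single mutants, the double mutant had 10 of 52 P450s called against foxo alone (8 higher, 2 lower), with 9.01% of all genes (4.74% higher, 4.27% lower), and 13 of 52 against miR-252 alone (6 higher, 7 lower), with 18.9% (9.45% higher, 9.49% lower). The first count was 6 without foxo replicate 1 or double mutant replicate 3, and the second was 8 without miR-252 replicate 1 or 3. Cyp4p2 had the greatest log2 change of the first comparison (5.31 ± 0.32, adjusted p = 1.92e-09) and Cyp9b1 of the second (2.15 ± 0.17, adjusted p = 1.55e-07). One mutant copy of daw on top of the double mutation did not give a call for the daw transcript itself (361 to 468 normalised reads against 414 to 456) and changed 4 P450s (2 higher, 2 lower), 7.69% against 5.09% (2.79% higher, 2.3% lower). Cyp4g1 was back at 15443, 14947 and 21880.1 (0.71 ± 0.14, adjusted p = 0.00898), Cyp4s3 was down to 12, 12.9 and 13.9 (-1.42 ± 0.29, adjusted p = 0.00995), and both groups lay apart from the double mutant. Cyp6t1 was higher and Cyp305a1 lower. The count was 2 without double mutant replicate 3 or without replicate 1 or 3 of the flies with the mutant daw copy. Against WT these flies had 17 of 52 P450s called (10 higher, 7 lower), 32.7% against 15.9% (7.69% higher, 8.17% lower), with gut markers lower in 5 of 9 and higher in 2 (sums of 31767 to 37664). The lowest adjusted p was that of Cyp305a1 (319, 264 and 284 in WT, 120.0, 126 and 123 in the mutant, -1.22 ± 0.12, adjusted p = 7.61e-07).

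**Figure D4:**
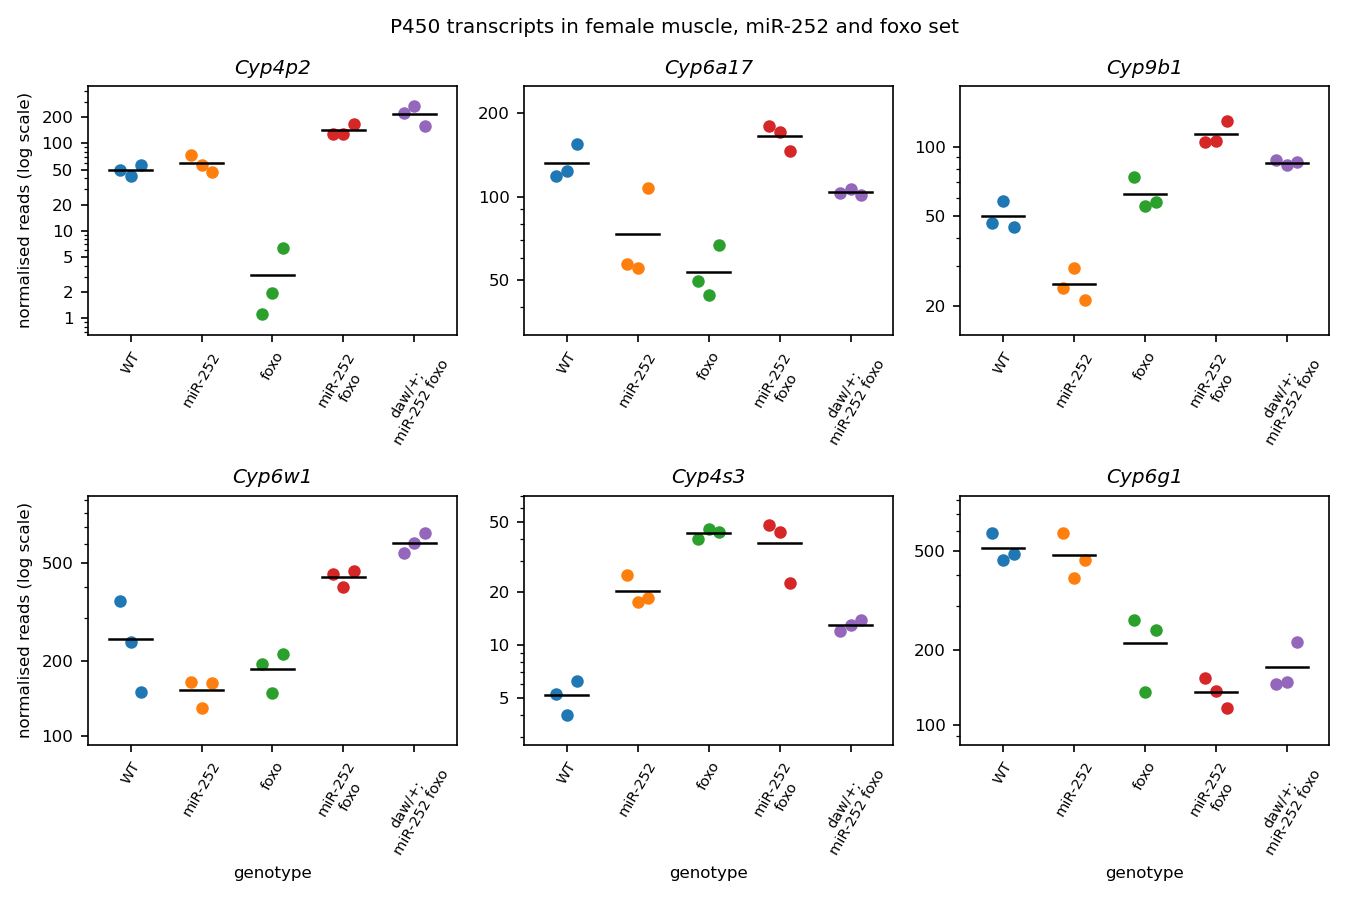
Normalised reads (log axis) of 6 P450 genes in female muscle of the miR-252/foxo set by genotype. Points are libraries (3 per group) and lines are means. Cyp4p2 was near 0 only with foxo loss alone (mean 3.11) and above WT in both groups that lacked miR-252 and foxo, and Cyp6g1 was low in all 3 groups that lacked foxo.

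In axenic females the authors' deposited table gave 13 of 66 P450s called between foxo mutant and WT (6 higher, 7 lower), 19.7% against 6.25% of all genes (3.01% higher, 3.24% lower). No values of single axenic libraries were used here, so their spread is known only through the deposited standard errors. For conventional culture the authors' deposited table of the foxo mutant called 12 P450s (10.6% of all genes), and 7 genes were called in both tables, 53.8% of the axenic list and 58.3% of the conventional list. Over all genes that could be matched between the authors' deposited tables, 333 were called in both, 56.8% of the axenic list and 35.5% of the conventional list. All 7 P450s had the same sign in both deposited tables, as did 331 of those 333 genes. Cyp4p2, Cyp6a17, Cyp305a1 and Cyp309a2 were lower and Cyp4s3, Cyp6a23 and Cyp9b2 higher. The deposited log2 change of Cyp4p2 in the authors' tables was -5.00 ± 0.30 (adjusted p = 3.93e-60) in axenic and -2.18 ± 0.28 (adjusted p = 1.62e-12) in conventional culture. For conventional culture the limma fit above gave a larger fall of Cyp4p2, by log2 -3.83 (limma adjusted p = 2.08e-07), so its size depends on the fit. The difference between cultures was not tested.

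Cyp6a2 fell in the axenic table by log2 -2.22 ± 0.27 (authors' deposited adjusted p = 3.34e-14) and stood at -0.40 ± 0.23 in the conventional one (authors' deposited adjusted p = 0.364). Cyp6g1 stood at -0.49 ± 0.21 in the authors' deposited axenic table (adjusted p = 0.176) and at -0.997 ± 0.237 in the conventional one (adjusted p = 0.000612). Both genes were lower in both cultures, and whether the size differed between cultures was not tested. Cyp6a14 and Cyp4g15 were lower and Cyp4p1, Cyp313a1 and Cyp12a5 higher in the authors' deposited axenic table, by log2 -1.73, -0.73, 1.14, 0.79 and 0.62.

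Several further members have known functions. Cyp301a1, a mitochondrial P450 needed for adult cuticle formation, had means of 18.8 ± 4.13 at 3 d and 10.7 ± 1.57 at 45 d and missed the threshold (-0.75 ± 0.25, adjusted p = 0.0567) although those groups did not overlap. Cyp303a1, of the CYP2 clan and needed for bristle development, stood at 9.99, 9.69 and 3.75 in WT and 14.7, 20.4 and 17.3 in the daw 3' UTR mutant, apart from each other but not called (1.15 ± 0.38, adjusted p = 0.147). Cyp12d1-p, from a gene pair inducible by DDT, gave 0, 12.7 and 42.9 at 3 d and 8.30, 12.4 and 13.6 at 45 d. Its spread at 3 d was wider than any difference between ages. Cyp6a8, a fatty acid hydroxylase, was among the genes of the 2R cluster that fell in the daw 3' UTR mutant, from 38.8, 53.3 and 22.5 to 4.88, 10.7 and 12.7, and it was higher again with foxo loss, at 28.8, 57.4 and 13.2 (1.57 ± 0.45, adjusted p = 0.0154). Cyp18a1, which fell with age, passed the test in none of the 7 mutants against WT, with 281 ± 32.5 in WT and 236 ± 9.10 in the foxo mutant. Cyp28a5, lower in the Atg8a mutant, was 348 ± 70.3 in the daw 3' UTR foxo double mutant against 246 ± 46.7 in WT (0.50 ± 0.17, adjusted p = 0.0317), with overlapping groups. Values of Cyp12d1-d and Cyp310a1 were not used here.

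The mitochondrial Cyp12 genes did not move as 1 group. Against WT, Cyp12a4 was higher in the daw 3' UTR foxo double mutant, from 259.6, 248 and 189.9 to 340.4, 399.9 and 387 (0.70 ± 0.14, adjusted p = 0.00105), and lower in the miR-252 foxo double mutant, from 490.4, 373 and 409 to 321, 357 and 286 (-0.40 ± 0.11, adjusted p = 0.0142). Neither pair of groups overlapped. Cyp12c1 was higher in the daw 3' UTR foxo double mutant (log2 0.81) and Cyp12e1 was called lower in 3 mutants and higher in none.

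Across the 7 mutant comparisons with WT, 50 P450s were tested in all. Of these 40 were called at least once, 80.0% against 51.4% of the 7846 genes tested throughout. In 4 or more comparisons 10 were called, 20% against 7.05%, and 10 were called in both directions, 20% against 3.48%. These comparisons share the WT libraries of their set. Another 10 were never called, while 14 were called only higher and 16 only lower. No gene was called in all 7, and the most was 6, reached by Cyp4p2 and Cyp4s3. Cyp305a1 was called lower in 5 mutants and higher in none. The 10 genes called in none of the 7 were Cyp18a1, Cyp301a1, Cyp311a1, Cyp4d8, Cyp4e2, Cyp6a13, Cyp6a21, Cyp6u1, Cyp6v1 and Cyp9f2, the last of which had the third highest level per kilobase in WT females of the miR-252/foxo set. The colour map of log2 changes shows, in chromosomal order, the 42 P450s called in at least 2 of 11 comparisons.

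**Figure D5:**
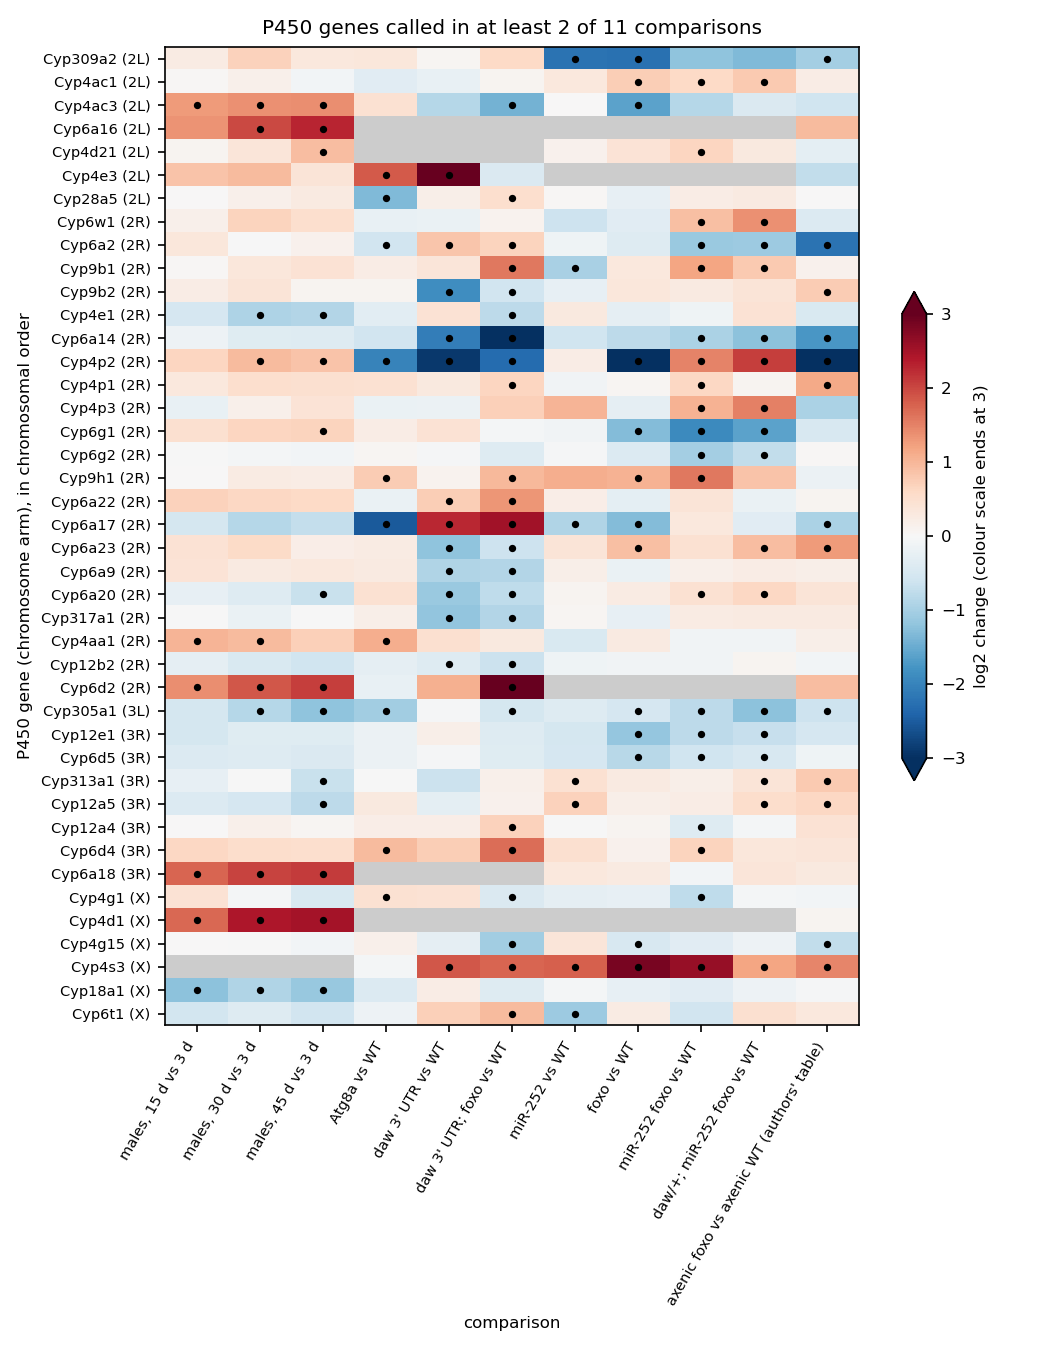
Log2 changes (colour, ends at 3) of the 42 P450 genes called in at least 2 of 11 comparisons, by comparison (columns) and chromosomal order (rows, arm in brackets). Black dots mark calls and grey cells genes not tested. Cyp4p2 changed sign between mutants, Cyp4s3 was higher in each mutant but Atg8a, and Cyp305a1 was lower wherever it was called.

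Genes that serve the P450s were followed as lists. Of 6 electron transfer partners, 2 were lower in the miR-252 foxo double mutant: Cpr, the P450 reductase, by log2 -0.49 ± 0.10 (adjusted p = 0.000826), and Cyt-b5-r, a cytochrome b5-related gene, by -1.62 ± 0.14 (adjusted p = 2.06e-07). Of all genes 12.9% were lower there. In the daw 3' UTR foxo double mutant 2 of the 6 were higher and 2 lower than in WT, with 16.7% and 19.1% of all genes. Cyt-b5-r was lower in each comparison of a foxo mutant with its WT, by log2 -1.21 in the foxo mutant, -1.55 with the mutant daw copy, -1.09 in the daw 3' UTR foxo double mutant and, in the authors' deposited axenic table, -0.99. With age it was higher, by log2 0.81 at 45 d, where Cpr was lower by log2 -0.70. At 45 d 2 of the 6 were higher and 1 lower, with 8.41% and 10.5% of all genes. In heme synthesis 2 of 8 genes were lower at 45 d, Alas, the first enzyme of the pathway, by log2 -1.94 ± 0.15 (adjusted p = 4.68e-06). In the daw 3' UTR foxo double mutant 3 of these 8 genes were higher than in WT and 1 lower. Of 8 regulators of xenobiotic, hormone and stress responses 7 were tested. In the daw 3' UTR foxo double mutant 2 regulators were lower than in WT, the juvenile hormone receptors gce (log2 -0.61, adjusted p = 0.00445) and Met (log2 -0.39, adjusted p = 0.0413). Of all genes 19.1% were lower there. In the miR-252 foxo double mutant cnc, the fly Nrf2 factor, was lower (log2 -0.28, adjusted p = 0.0472), and against the miR-252 mutant its inhibitor Keap1 was higher (log2 0.68) and gce lower (log2 -0.64). Those were the only regulators called in the 2 comparisons, in which 25.2% and 18.9% of all genes were called. P450s of ecdysteroid synthesis that carry other symbols were scarce: 3 of 6 were listed, with a summed level of at most 77.7 normalised reads in a library.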

How the data were processed

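Polyadenylated RNA of fly muscle was sequenced, and STAR, HTSeq, DESeq and the dm6 build are named in the submitters' processing notes. The authors deposited 3 tables of normalised read counts (a signal per gene and library), normalised separately for the male ages, for the Atg8a and daw 3' UTR mutants (the Atg8a/daw set) and for the miR-252 and foxo mutants (the miR-252/foxo set). For mutants against WT, axenic foxo included, the authors also deposited log2 fold changes, their standard errors (treated as scores), p-values and adjusted p-values. The tool behind those comparisons and the use of strand are not given in the sources used here. Libraries of Ago1 precipitates were not used. The WT columns of the miR-252/foxo set were taken as 3 libraries of 1 group, since their numbers tie them to no single sample.

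Male libraries held 2838395 to 3487569 reads, those of the Atg8a/daw set 2358162 to 4023468 and those of the miR-252/foxo set 3294056 to 4078819. Within a library all deposited values were whole multiples of 1 step (tolerance 0.01), so whole reads could be recovered. Limma 3.58.1 (R 4.3.3) with a trend was fitted to log2(value + 1) over all groups of a table, keeping genes whose mean reached 10, and p-values were adjusted over all of them (Benjamini-Hochberg, called under 0.05). Fold changes on this scale understate those of low genes. The fit was tested on simulated data. Alternatives were DESeq2 1.42.0 or edgeR 4.0.16 on the recovered reads, a common upper quartile, a pseudocount of 8, no filter, fits of only the groups compared, a replicate block, each library left out, and the authors' deposited adjusted p. Levels per kilobase divide by the exon bases of the Ensembl annotation.

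The family and the other gene lists were chosen with earlier results of these data known. One gene that the name rule would take is not reported here. Genes were named by rule: per comparison up to 8 called with groups that did not overlap in each direction (smallest adjusted p), the 6 with the highest mean in each table, members of known role, up to 8 in each direction in the axenic table and up to 4 called partner genes per list. Others named were chosen after their values were seen.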

Additional observations from a re-analysis of the deposited data

Results flagged for a closer look

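The effect of losing foxo differed with the miR-252 genotype for 6 P450s by the interaction term of the limma fit, with 3 libraries a group. The difference is the log2 foxo effect in the miR-252 mutant minus that in WT. It was 5.09 for Cyp4p2 (adjusted p = 1.31e-06), where foxo loss lowered the gene in WT and raised it in the miR-252 mutant. It was 2.52 for Cyp6a17 (adjusted p = 3.75e-05), which also changed sign. For Cyp9b1 it was 1.83 (adjusted p = 0.000157) and for Cyp6w1 1.87 (adjusted p = 0.000995), both highest in the groups that lacked miR-252 and foxo. It was -2.03 for Cyp4s3 (adjusted p = 0.00928), which either loss raised. For Cyp309a2 it was 3.23 (adjusted p = 0.0483), a call lost when any 1 WT library was left out.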

How the results depend on the processing

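Counts in this section are given without the share of all genes called in the same setting. They do not show whether P450s alone or genes in general gained or lost calls. Without 3 d replicate 3, which gave the highest counts at the 3 ages, 30.8%, 42.1% and 48.7% of all genes were called. Of 114 counts of called P450s under other settings, 104 stayed within 1.5 times the main count. The 10 that moved were these. For 45 d against 15 d (1 gene) the count was 0 without a filter, 2 with edgeR, 4 with DESeq2, 11 with only the groups compared and 0 with the replicate block. With only the groups compared it was 0 at 15 d (6), 3 at 30 d (10) and 7 at 45 d (15) against 3 d. In that setting it was also 4 for miR-252 (7) and 2 for the mutant daw copy on the double mutation (4). That fit uses fewer libraries, and the part of this in the counts was not tested. At 15 d the 0 of that setting stands beside 5 called by edgeR and 8 by DESeq2. With 1 library left out, counts ranged from 3 to 30 at 15 d, 8 to 31 at 30 d, 12 to 35 at 45 d and 0 to 1 for 45 d against 15 d. They ranged from 5 to 9 for Atg8a, 9 to 14 for daw 3' UTR, 26 to 28 for its double with foxo and 13 to 26 for foxo within it. The ranges were 2 to 4 for miR-252, 10 to 13 for foxo, 13 to 18 for both and 12 to 17 with the mutant daw copy. They were 6 to 8 for miR-252 within foxo, 8 to 16 for foxo within miR-252, 2 to 4 for the daw copy and 5 to 6 for the interaction. The replicate numbers do not pair the samples: correlations of same-numbered deviations ran from -0.131 to 0.281, and in no pair of groups were all 3 over 0.1. The replicate block gave 5, 10 and 13 at the 3 ages, 9 for Atg8a, 14 for daw 3' UTR, 30 and 22 for the double against WT and against daw 3' UTR, 10 for miR-252 within foxo, 16 for foxo within miR-252 and 6 for the daw copy. No block could be fitted against the unnumbered WT of the miR-252/foxo set. Of 195 calls of named genes no direction reversed, and of 1409 values under settings other than left-out libraries 117 missed the threshold, as did 260 of 1206 with 1 library left out. The cause was not tested. The 16 genes that reached a mean of 10 reads in no table that lists them were not tested. For them low depth and a low transcript level cannot be told apart.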

Other observations

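UDP-glycosyltransferases, which attach sugars to the products of detoxification, moved in both directions. Of the 7 tested in females, Ugt86Dd was lower in the Atg8a mutant (log2 -1.60, limma adjusted p = 0.000417) and higher in the daw 3' UTR foxo double mutant (log2 0.93, adjusted p = 0.00405). In the authors' deposited axenic table Ugt86Dd was higher in the foxo mutant (log2 1.90, adjusted p = 1.2e-15). Ugt36Bc was lower in the Atg8a, miR-252 and foxo mutants and in the miR-252 foxo double mutant, by log2 -0.59, -0.52, -0.47 and -0.51. In males, Ugt35a and Ugt35b were lower at 45 d, by log2 -0.76 and -1.11.

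WT females of the 2 sets carried the same label but did not have the same P450 levels. Cyp4p2 had a mean of 147 ± 3.999 normalised reads in the Atg8a/daw set and 49.9 ± 7.13 in the miR-252/foxo set (SD, n = 3). Cyp4d21 had 7.999 ± 3.997 and 57.1 ± 14.6. The sets were normalised separately, and the difference was not tested.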
